A study of Homo sapiens with 12 samples.

Results

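The 10 genes described here encode TRAIL, a ligand of the tumor necrosis factor family, and parts of death receptor signaling up to the initiator caspases. Among them are decoy receptors, an inhibitor and TNFRSF1A, the receptor of another ligand. They were chosen by name and are TNFRSF10A, TNFRSF10B, TNFRSF10C, TNFRSF10D, TNFRSF1A, TNFSF10, FADD, CASP8, CASP10 and CFLAR. All 10 were listed in both deposited tables, among 25914 genes in all. The series holds RNA-seq libraries of 2 wild-type cell lines, RPE-1 hTERT, retinal epithelial cells immortalized with telomerase, and HCT116, an epithelial colon cancer line. Each line was treated for 24 h with 10 µM Nutlin-3a, which keeps MDM2 from binding p53, or with the solvent DMSO, with 3 libraries in each of the 4 groups.

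TRAIL binds receptors on the cell surface. The death receptors TNFRSF10A and TNFRSF10B carry a cytoplasmic death domain that recruits the adaptor FADD, and FADD in turn recruits the procaspases CASP8 and CASP10 into a signaling complex where they are activated. The decoy receptors bind TRAIL without passing on the death signal, TNFRSF10C because it has no cytoplasmic part and TNFRSF10D because its death domain is truncated. CFLAR resembles CASP8 and competes with it in the complex. TNFRSF10B is a textbook target of p53.

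The tables give 1 level per gene, the base mean, which is the authors' mean of normalized read counts over libraries. The base mean was identical in both tables for all 25914 genes, so it is not a level in 1 cell line or 1 treatment. It carries no spread between replicates and no number of libraries. Which libraries were averaged is not stated in the sources used here. Markers of breast epithelium, the origin of neither cell line, stood at high base means, with GREB1 at 19944, GATA3 at 15906, TFF1 at 13215, ESR1 at 1335 and PGR at 480. The colon epithelial marker EPCAM had 2480, CDX2 had 248.0, and VIL1 had 5.68. VIM and FN1, which are high in mesenchymal-like cultured cells such as RPE-1, had 63458 and 71801, whereas COL1A2 had 10.8. Of the pigment epithelium markers, MITF had 484, BEST1 67.9 and PMEL 67.2, and the defining markers RPE65, TYR and RLBP1 were not listed. The values below are therefore pooled levels over an unstated set of libraries, and they are not read as the level in RPE-1 or HCT116 cells. The remaining value columns are the authors' own comparisons of Nutlin-3a with DMSO. They were not used, so the response of these genes to Nutlin-3a was not analyzed here. Depth per library is unknown for the same tables.

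Because longer RNAs yield more reads, levels were compared between genes per kilobase (kb) of all annotated exons of the gene, merged. The longest transcript and the longest coding sequence served as other lengths. All lengths come from a later annotation than the one the authors' methods name. Per kb of merged exons, TNFRSF10B stood highest and TNFSF10 lowest, 764-fold apart. The base mean of TNFSF10 was only 7.83, where the lowest of all listed genes was 2.91, so this ratio rests on few reads. TNFRSF1A and FADD came next to TNFRSF10B, the other TRAIL receptors lay in the middle, and the initiator caspases and CFLAR lay below them. The median of the 10 genes was 283.2 per kb, beside 51.3 for all listed genes with an annotated length and 120.3 for the protein-coding ones. Above the median of all genes lay 8 of the 10, and above that of the protein-coding genes 6 of the 10. These are descriptions of pooled values without a test, and with no replicate spread none of the differences between neighbors in this order can be weighed against error.

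**Figure D1:**
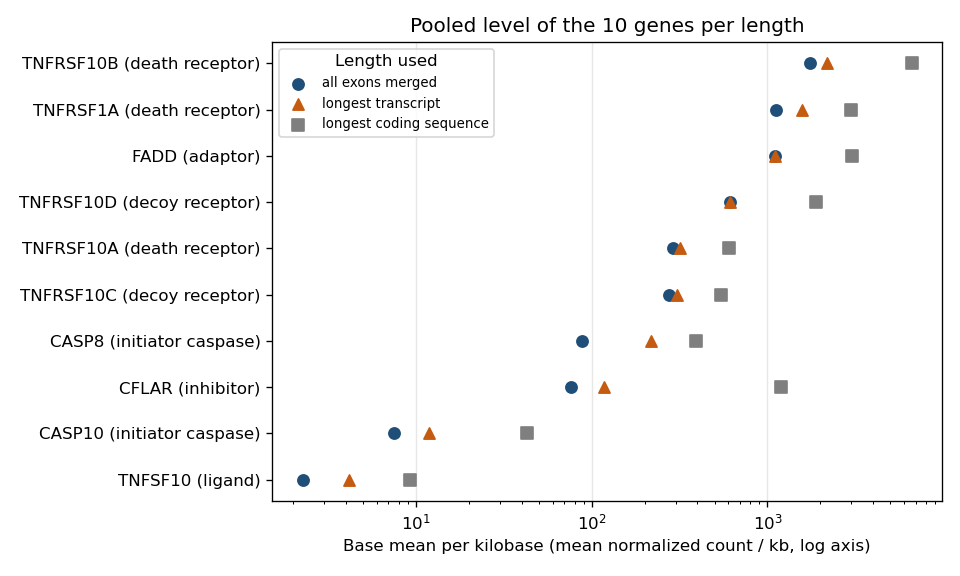
The base mean per kilobase of each gene is plotted on a log axis, with the gene's role in parentheses and 1 symbol for each way of measuring length (all exons merged, longest transcript, longest coding sequence). TNFRSF10B is highest and TNFSF10 lowest with each length, whereas CFLAR moves from position 8 to position 5 when only its coding length is counted.

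Among the receptors, TNFRSF10B (ENSG00000120889), known as DR5 or TRAIL-R2, had a base mean of 8708. Its level per length was 1738 per kb, above 96.9% of the listed genes. TNFRSF10A (ENSG00000104689), the other TRAIL death receptor, had a base mean of 852.2 and 291.2 per kb, so that TNFRSF10B stood 5.97-fold higher per length. The death receptors for the same ligand thus stood apart in the pooled values. With the coding length in place of all exons, the ratio was 10.9.

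The decoy receptors did not share a level either. TNFRSF10D (ENSG00000173530) had a base mean of 2178 and 616 per kb, above 90.3% of the listed genes. TNFRSF10C (ENSG00000173535), which is anchored to the membrane by a lipid, had 425.3 and 275.2 per kb. TNFRSF10D was thus 2.24-fold higher than TNFRSF10C per length, and TNFRSF10B was 2.82-fold higher than TNFRSF10D. TNFRSF10A and TNFRSF10C were next to each other in the order, 1.06-fold apart.

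TNFRSF1A (ENSG00000067182), the main receptor for tumor necrosis factor, signals through the adaptor TRADD rather than binding FADD directly. It had a base mean of 4719 and 1122 per kb, which put it 1.55-fold below TNFRSF10B and 3.85-fold above TNFRSF10A. With the coding length, it exchanged places with FADD.

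TNFSF10 (ENSG00000121858), the gene of TRAIL itself, had a base mean of 7.83. Per length it stood at 2.28 per kb, the lowest of the 10 genes, and 7.32% of the listed genes were lower. Each of the 4 TRAIL receptors among the 10 genes lay above the median of all genes per kb.

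FADD (ENSG00000168040), the adaptor between the receptors and the caspases, is a short gene with 2 exons. It had a base mean of 1882 and 1102 per kb, close to TNFRSF1A, which was 1.02 times as high per kb of merged exons. That ratio was 1.43 with the longest transcript and 0.988 with the coding length. CASP8 (ENSG00000064012) had a base mean of 637.2 and 88.1 per kb, 12.5-fold below its adaptor, a ratio that was 5.07 with the longest transcript and 7.64 with the coding length. CASP10 (ENSG00000003400), a relative of CASP8 that is found in humans but not in mice, had 67.2 and 7.54 per kb. CASP8 was thus 11.7-fold higher than CASP10 per length, 18.3-fold with the longest transcript and 9.19-fold with the coding length.

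CFLAR (ENSG00000003402), the gene of the inhibitor c-FLIP, had a base mean of 1721. Its place relative to CASP8 depended on the length used. Per kb of merged exons, of which CFLAR has 22478 bases and CASP8 7237, CFLAR was at 76.5 per kb, 0.869 times the level of CASP8. Per coding length, 1440 bases for CFLAR and 1614 for CASP8, it was 3.03 times higher. Which of both RNAs was more abundant in the pooled libraries was not decided by these values.

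**Figure D2:**
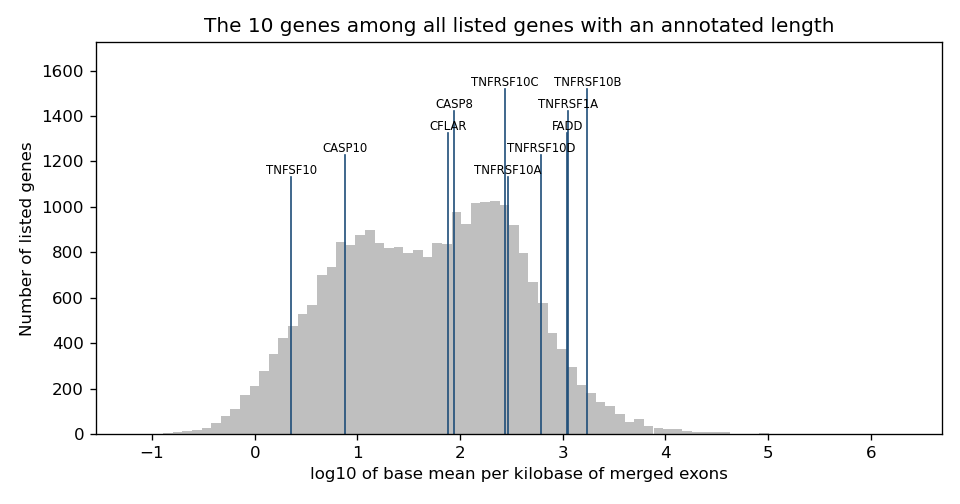
The grey histogram counts the listed genes by the log10 of their base mean per kilobase of merged exons, and each blue line marks 1 of the 10 genes, with line height used only to keep the names apart. TNFRSF10B, TNFRSF1A and FADD lie in the upper tail, above 94.9% of the genes or more, and CASP10 and TNFSF10 lie above 21.4% and 7.32%.

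Of 25 other genes of death receptor signaling, 23 were listed. The ligand genes FASLG and TNF were not. The receptors FAS and TNFRSF21 stood at 40.9 and 825.8 per kb. The place of FAS depended on the length used, as it has 29313 bases of merged exons. With the coding length FAS stood at 1092 per kb, beside 607.0 for TNFRSF10A. Per kb of merged exons, TNFRSF11B, a soluble receptor that also binds TRAIL, stood at 236.8. TNFRSF1B, the other receptor for tumor necrosis factor, stood at 5.02. The complex partners ranged from TNFAIP3 at 84.7 to TRAF2 at 236.6 per kb, with RIPK1 at 101.3. Among the inhibitors of apoptosis, XIAP stood at 193.9, BIRC2 at 352.8 and BIRC3 at 55.1 per kb. BID, which links the receptor route to mitochondria when CASP8 cuts it, stood at 248.5 per kb. Per length, the 23 genes ranged from 5.02 to 825.8 per kb with a median of 127.7, and 3 of the 10 genes, TNFRSF10B, TNFRSF1A and FADD, stood above the highest of them, TNFRSF21. With the coding length, CYCS, the gene of cytochrome c, was at 8278 per kb and 0 of the 10 genes stood above it.

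Gene positions are those of GENCODE 44 on GRCh38, the build that the labels name as hg38. The 4 TRAIL receptor genes lie side by side on chromosome 8. TNFRSF10B spans 23020133 to 23069031 on the minus strand, TNFRSF10C 23102921 to 23117445 on the plus strand, TNFRSF10D 23135588 to 23164027 and TNFRSF10A 23190452 to 23225102, both on the minus strand. Between TNFRSF10B and TNFRSF10C lie 33889 bases, between TNFRSF10C and TNFRSF10D 18142, and between TNFRSF10D and TNFRSF10A 26424. TNFRSF10B and its neighbor TNFRSF10C differed by 6.31-fold per kb of merged exons and by 12.1-fold with the coding length. The end of TNFRSF10B overlaps RHOBTB2 on the other strand by 377 exon bases, and RHOBTB2 had a base mean of 892. Larger overlaps on the other strand are annotated for FADD, which shares 1011 of its 1708 exon bases with the noncoding gene ENSG00000254721 (base mean 4.17), and for CFLAR, which shares 1488 with the pseudogene IMPDH1P10 (30.7) and 777 with CFLAR-AS1 (7.35). TNFRSF10A, with a base mean of 852.2, shares 266 exon bases with the noncoding gene TNFRSF10A-DT on the other strand (79.9). TNFRSF10C shares 261 with ENSG00000284948 on its own strand (19.8). The protein-coding gene ENSG00000284956, from 23084403 to 23115536 on that strand, also overlaps TNFRSF10C and was not listed. Exon overlaps were computed only for listed genes, so the overlaps given here are not a full survey. Whether ENSG00000284956 affects the level of TNFRSF10C was not tested. The authors' methods set the counting to the strandness of each library, and how well the strands were told apart was not tested. The TRAIL receptor genes also resemble each other in sequence. The authors' methods kept only reads placed uniquely, so reads that match more than 1 of these genes equally well were left out. How many reads each gene lost in this way was not tested, so the levels of these genes are uncertain to that extent.

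CFLAR, CASP10 and CASP8 form a second cluster, on the plus strand of chromosome 2 and in this order. CFLAR spans 201116154 to 201176687, CASP10 201182872 to 201229428 and CASP8 201233443 to 201361836, with gaps of 6184 and 4014 bases. CASP10, the middle gene, was 10.2-fold below CFLAR per kb of merged exons and 27.8-fold below it with the coding length. The other genes lie apart from these clusters, TNFRSF1A on chromosome 12 from 6328757 to 6342114, TNFSF10 on chromosome 3 from 172505508 to 172523475, both on the minus strand, and FADD on chromosome 11 from 70203296 to 70207390 on the plus strand.

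**Figure D3:**
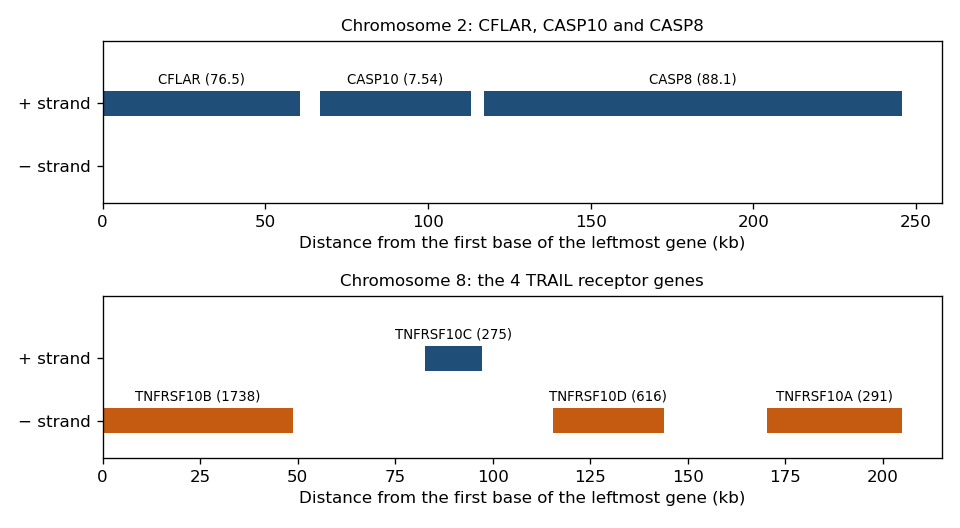
Both gene clusters are drawn to scale as distance in kb from the first base of the leftmost gene, plus strand in blue and minus strand in orange, with the base mean per kilobase of merged exons in parentheses. CASP10 at 7.54 lies between CFLAR at 76.5 and CASP8 at 88.1, and the TRAIL receptor genes range from 275 to 1738.

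Promoter windows of 300 bases from RefSeq (GRCh38.p14), which reach from 250 bases before to 50 after a gene start, were searched for the p53 consensus motif of 10 letters known as the p53 decamer. This motif reads the same on both strands. Windows were given for 5 of the 10 genes (CASP8, CFLAR, FADD, TNFRSF1A and TNFSF10), 10 windows in all, as CASP8 and CFLAR have several starts. An exact match was found in 1 window, beside 6.63% of all 35116 windows. With up to 1 mismatch, 5 of the 10 windows held a match, beside 63.7% of all windows. With 10 windows from 5 genes, several of them from the same gene, these shares were not tested against those of all windows. A match here is a string of letters and not a bound site, and no binding was measured in this series. The exact match is shown in capitals within its window, which belongs to a start of CASP8 on the plus strand at chr2:201257785-201258084, and it covers bases 201257914 to 201257923, ahead of that start and, in GENCODE 44, inside the span of the gene.

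CASP8 window: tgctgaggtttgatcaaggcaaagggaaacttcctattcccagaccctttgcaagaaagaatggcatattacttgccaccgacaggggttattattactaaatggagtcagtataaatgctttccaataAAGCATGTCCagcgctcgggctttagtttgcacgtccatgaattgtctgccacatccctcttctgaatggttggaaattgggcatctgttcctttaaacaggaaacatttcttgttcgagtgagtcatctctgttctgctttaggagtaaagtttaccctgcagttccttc

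Over the whole genes, introns included, exact matches of the decamer occurred 2.92 times per 10 kb in the 10 genes and 2.73 times in all 25836 genes searched. CASP8 had 41 matches, CFLAR 22, TNFRSF10B 15 and TNFRSF10A 14. Per 10 kb these were 3.19, 3.63, 3.07 and 4.04, beside 1.38 for TNFRSF10C and 1.41 for TNFRSF10D. FADD, the shortest of the 10 genes, had 0. Pairs of decamers in a row, with no bases between them and up to 1 mismatch in all 20 letters, were found in 0 of the 10 genes and in 9.32% of all genes searched. This says only that these letters are not in these genes, and p53 can bind elements with more mismatches.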

How the data were processed

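RNA-seq of RPE-1 and HCT116 cells treated with Nutlin-3a or DMSO was grouped by the sample titles. Per the labels, libraries were made from total RNA after ribosomal RNA depletion. The paper lists this series as its RPE-1 RNA-seq data. In its methods, the authors kept reads that segemehl placed uniquely on hg38 and set exon counting to library strandness. Those methods name poly(A) selection, unlike the labels, and do not name HCT116. The submitters' processing notes name featureCounts 2.0.1 and DESeq2 1.32.0. The deposited signal is the DESeq2 base mean, a mean of counts divided by size factors, given by the authors for each gene. The 5 remaining value columns of each table hold the authors' own comparison (log2 fold change, its standard error, test statistic, p-value and adjusted p-value) and were not used. With no values per library, the planned tests could not be run, and no depth or interval is given.

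Base means were divided by exon lengths from GENCODE 44 (25836 of 25914 genes found by identifier). The authors' methods name an earlier annotation, so the exons counted and the exons measured may differ. How far this moves the levels per kb, above all for genes with many annotated exon bases, was not tested. A percentile is the share of genes with a lower value. The genes named are all 10 members, a list of other death receptor genes, lists of cell type markers, and genes that overlap a member. Single values of some listed genes are not reported here. The members and lists were chosen with earlier results of these data known. The motif search was tested on simulated sequences. Markers of immune cells (PTPRC 3.69, CD79A 7.75, CD14 4.29, and CD3E not listed), endothelium (PECAM1 11.1, VWF 76.3, and CDH5 not listed), osteoblasts (RUNX2 794, ALPL 111.7, and SP7 and BGLAP not listed) and the remaining colon and mesenchymal markers (KRT20 35.1, LGR5 12.1, and CDH17 not listed, LOX 4064, TAGLN 12022) were read from the same column. The planned comparison of protein sequences was not made, as no protein table was used here. Alternatives changed the genes ranked against, the length and the motif settings. Python 3.11.15 with numpy 2.4.6, pandas 2.3.3 and matplotlib 3.10.9 was used.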

Additional observations from a re-analysis of the deposited data

How the results depend on the processing

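No paired analysis was possible because the values used hold no libraries, and for the same reason no replicate was left out and the tests of Nutlin-3a against DMSO and their alternatives were not run. Of 47 values recomputed under alternatives, 36 stayed within 1.5 times the reported value and 11 moved further. The 36 include high percentiles that could hardly move that far, such as that of TNFRSF10B, 98.0 as reported and 97.5 and 97.0 under alternatives. The count of stable values is thus no measure of robustness. Of the 10 genes, 8 lay above the median per kb, 7 with the coding length, and 6 when only protein-coding genes or only genes with a base mean of at least 10 were ranked. Of the 5 genes with promoter windows, 3 held a p53 motif there with up to 1 mismatch and 1 with 0 mismatches. Over whole genes, all 10 genes held a motif with up to 1 mismatch. Such motifs occurred 35.9 (TNFRSF10D) to 49.7 (CFLAR) times per 10 kb, and the share of all genes holding one is not given here. Pairs of motifs over whole genes, a setting chosen after the files were seen, were in 0 of the 10 genes, beside 9.32% of all genes searched. These changes follow from the construction of the settings. The other 8 shifts were ratios or percentiles of single genes, and CFLAR moved most, from 22.7-fold to 5.52-fold below TNFRSF10B when the coding length was used.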
